A study of Mus musculus with 4 samples.

Results

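Gfap, Vim, Lcn2, Serpina3n, Steap4, Cd44 and Sox9 are genes that reactive astrocytes are known for. Agilent microarrays read them here in RNA from whole amygdala. The mice were C57BL/6J males, 10 weeks of age. The members were all array probes whose gene name in the array files is one of these 7 symbols: 15 probes of 41174 transcript probes, and 7 names of 28631. Of the 15 probes, 13 passed a detection filter (a signal well above background on 3 or more arrays of some group) and were tested, among 28347 probes in all. The 4 groups were P2X7R-/- mice (KO) given lipopolysaccharide (LPS), KO mice given saline, wild-type mice (WT) given LPS and WT mice given saline. The gene targeted in KO mice encodes P2X7, an ion channel opened by extracellular ATP. LPS is a bacterial cell wall component that triggers innate immunity, and its dose was given in the labels both as 7.5 µg per mouse and as 250 µg/kg. All mice received 1 intraperitoneal injection and were killed 6 h later, with 4 mice and 4 arrays per group. The labels do not tie arrays to mice, so p-values measure the spread between arrays. RNA came from whole tissue, and more cells of a type and more RNA per cell cannot be told apart.

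Astrocytes answer injury and inflammation with a change of state called reactivity, in which they enlarge their intermediate filament network and secrete acute-phase and immune proteins. Interleukin-6 family cytokines acting through the transcription factor STAT3, and interleukin-1 and tumour necrosis factor acting through NF-kB, are known drivers. Gfap and Vim encode filament proteins of the cytoskeleton. Lcn2 encodes lipocalin 2, a secreted protein that binds bacterial siderophores, and Serpina3n a secreted serine protease inhibitor. Steap4 encodes a membrane metalloreductase, Cd44 the surface receptor for hyaluronan, and Sox9 a transcription factor of the glial lineage. None of the 7 genes is made by astrocytes alone. Lcn2, for example, is also known from neutrophils and endothelium, and Cd44 from leukocytes.

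Each probe is a single strand of 60 bases. The probes below are shown because they cross an exon boundary, or, for Cd44, because the probe reads only some of the transcripts. The Lcn2 probe A_51_P510156 (mm9, chr2:32241037-32241281, minus strand), the Steap4 probe A_52_P182919 (chr5:7978532-7980313, plus strand) and the Sox9 probe A_51_P451606 (chr11:112644310-112645162, plus strand) each align to the genome in separate blocks and so read spliced RNA. The Cd44 probe A_51_P407053 (chr2:102674420-102674479, minus strand) is listed against 2 of the 3 RefSeq transcripts that the other Cd44 probes list. It did not pass the detection filter, nor did the Vim probe A_52_P287532 (chr2:13498766-13498825, plus strand).
Lcn2 A_51_P510156: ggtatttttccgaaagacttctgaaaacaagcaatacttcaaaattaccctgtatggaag
Steap4 A_52_P182919: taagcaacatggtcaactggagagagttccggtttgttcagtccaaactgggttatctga
Sox9 A_51_P451606: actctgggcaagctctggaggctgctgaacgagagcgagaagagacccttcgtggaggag
Cd44 A_51_P407053: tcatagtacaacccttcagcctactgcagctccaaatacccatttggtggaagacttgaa
Gfap was read by the probe A_52_P540991, which also aligns in separate blocks, and by A_52_P52303 (chr11:102751813-102751872) and A_51_P395056 (chr11:102748916-102748976), both on the minus strand, and the array files list no RefSeq transcript for either. A_52_P52303 lies between the outer ends of the split probe A_52_P540991.

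The 250 bases before the transcription start of Steap4 and Lcn2 are shown because Lcn2 had the largest LPS fold of the members in KO and Steap4 was well above background in KO only after LPS. Promoter sequences were those of RefSeq on GRCm38.p6, where 6 of the 7 members had an entry and Sox9 had none. Capitals mark matches to 4 motifs searched on both strands: STAT (TTCNNNGAA), C/EBP (TTGCNNAA), AP-1 (TGANTCA) and NF-kB, which is given by name alone.
Steap4 promoter, chr5:7960222-7960471, plus strand: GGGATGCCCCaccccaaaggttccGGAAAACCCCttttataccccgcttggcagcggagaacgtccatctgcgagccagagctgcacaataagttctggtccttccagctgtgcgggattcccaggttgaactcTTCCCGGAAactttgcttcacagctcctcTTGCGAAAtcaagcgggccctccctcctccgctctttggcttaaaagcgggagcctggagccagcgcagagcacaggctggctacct
Lcn2 promoter, chr2:32387740-32387989, minus strand: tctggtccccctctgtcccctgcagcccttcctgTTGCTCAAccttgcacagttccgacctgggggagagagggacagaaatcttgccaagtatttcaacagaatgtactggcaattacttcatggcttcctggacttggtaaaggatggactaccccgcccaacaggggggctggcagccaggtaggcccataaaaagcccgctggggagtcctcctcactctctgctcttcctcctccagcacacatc
Steap4 held 1 STAT match, which starts 116 bases before the transcription start, 1 C/EBP match at 87 bases and 2 NF-kB matches at 250 and 226 bases. Lcn2 held 1 C/EBP match at 216 bases, and Vim 1 NF-kB match at 223 bases. Gfap, Serpina3n and Cd44 held no match to these letters in the window. Of 32851 mouse promoters of the same length, 7.02% held the STAT motif, 9.56% the C/EBP motif, 6.75% the AP-1 motif and 3.90% the NF-kB motif. A match is a description of letters and not of binding.

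A level is the log2 of a probe's processed intensity minus the 75th percentile of its array, so a level of 0 is as bright as that percentile. Levels of different probes are not compared. All KO arrays lay on slides 3 and 4, scanned in session 2, and all WT arrays on slides 1 and 2, scanned in session 1, so genotype and scan session cannot be told apart. P2rx7, the targeted gene, read lower in KO on the probe A_52_P393314, by −1.65 ± 0.25 after LPS (log2, SE, adjusted p = 0.000107) and −1.51 ± 0.25 after saline (adjusted p = 0.000211). The other P2rx7 probe, A_51_P506733, differed by 0.06 ± 0.29 after LPS (adjusted p = 0.875) and by 0.24 ± 0.29 after saline (adjusted p = 0.510). Both probes still gave signal in KO. A_52_P393314 was well above background on all 4 arrays of each KO group, and A_51_P506733 on 3 after LPS and 4 after saline. The astrocyte-defining genes Aqp4, Aldh1l1, Slc1a3 and Gja1 lay well above background on all 16 arrays. WT saline replicates 1 and 2, both on slide 1, stood apart from replicates 3 and 4 on slide 2 in LPS-responsive genes. Lcn2 read 1.11 and 0.80 on those 2 arrays, against −7.83 and −7.28 on the other WT saline arrays. Tests on the WT saline group are therefore given with all arrays and, as a description, without these 2. The 2 arrays were singled out because they read high in the very genes tested, Lcn2 among them, so differences without them are conditioned on the outcome, their p-values are too small by an unknown amount, and they are no independent evidence of a response.

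**Figure D1:**
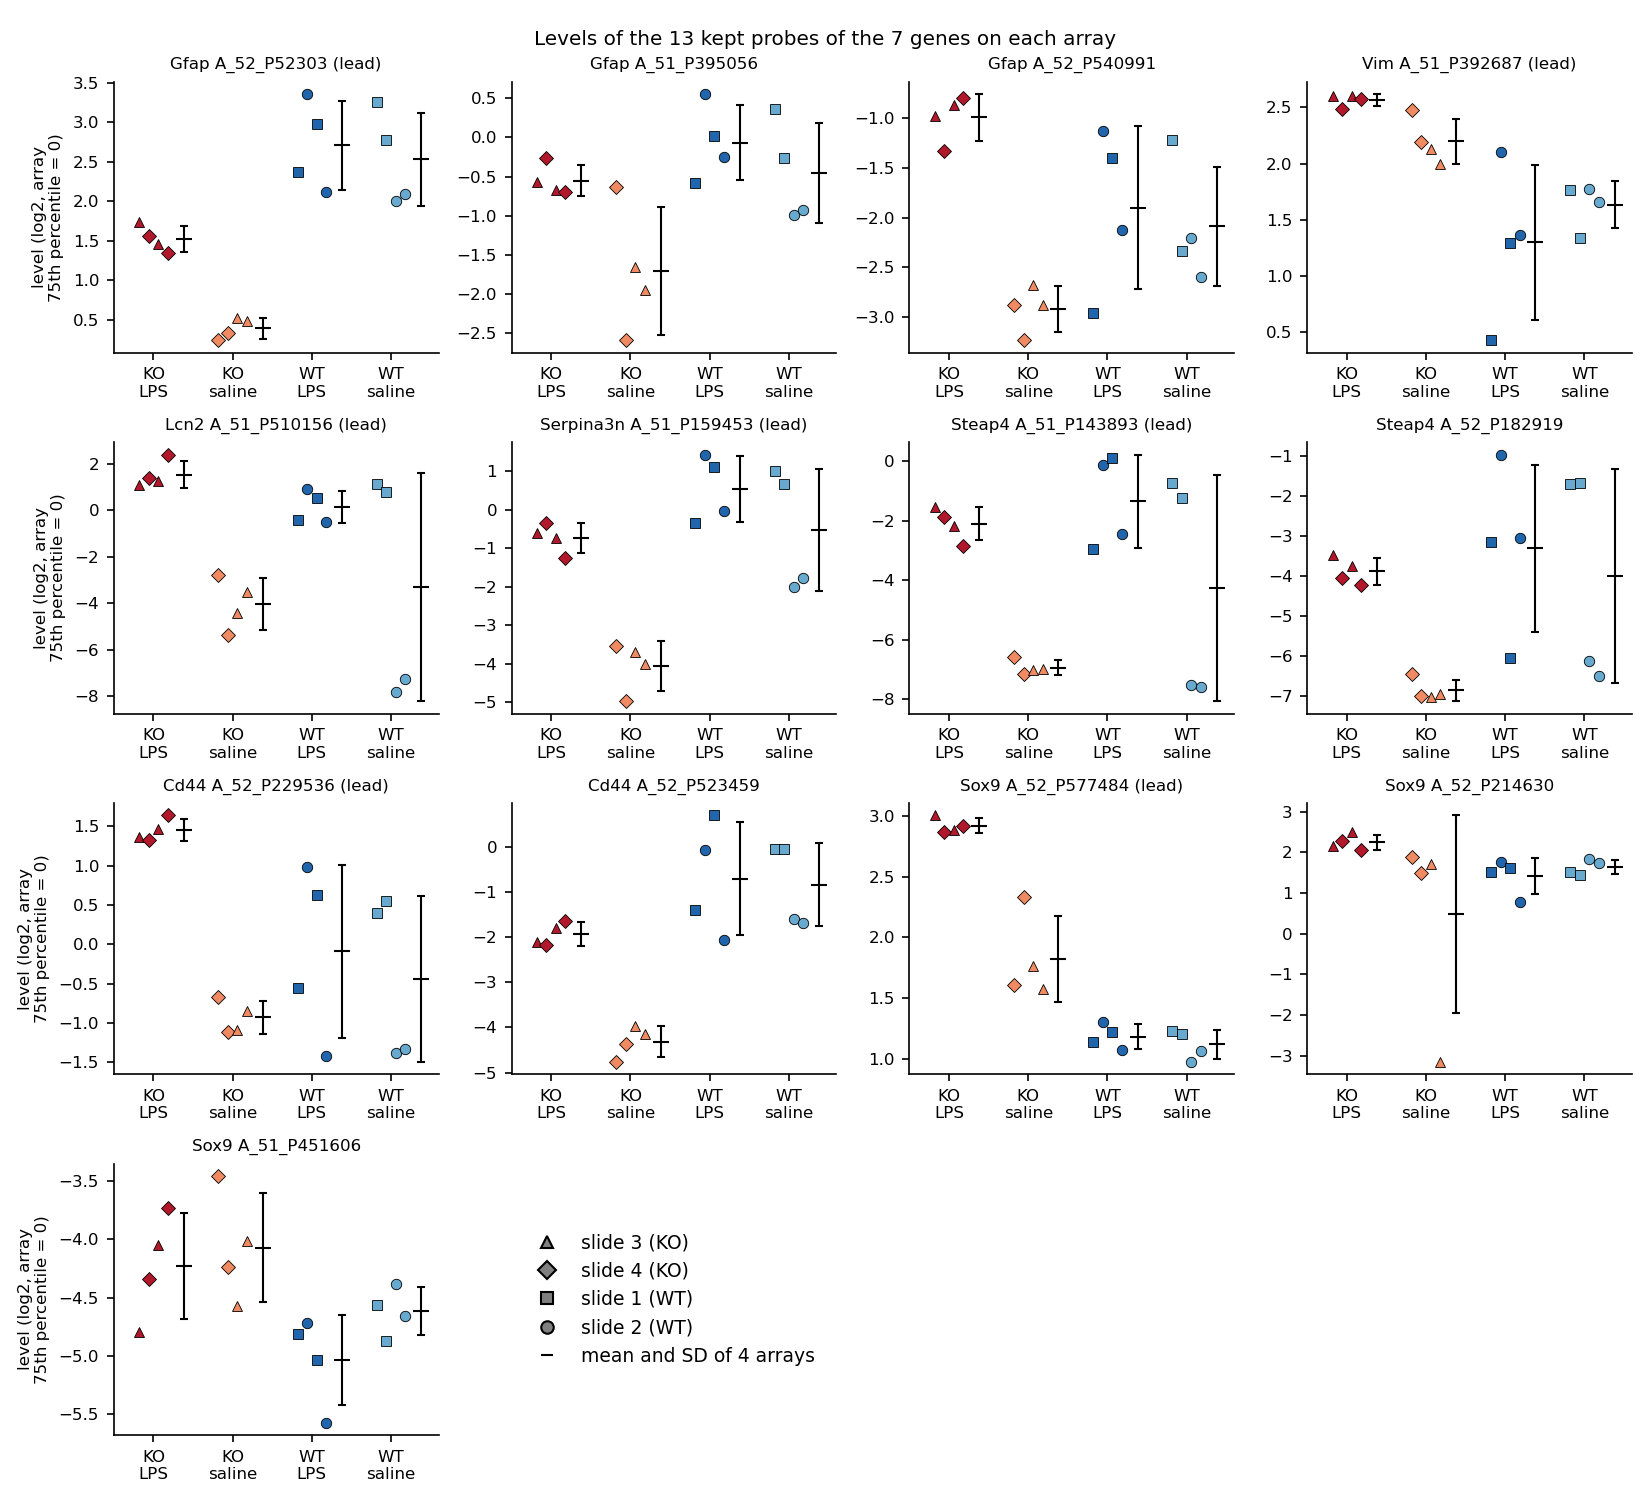
Level (log2, array 75th percentile at 0) of the 13 tested probes on each of the 16 arrays, in the order KO LPS, KO saline, WT LPS and WT saline. The marker shape gives the slide and the black bars the mean and SD of 4 arrays. In Lcn2 and the Steap4 lead probe A_51_P143893 the WT saline squares (slide 1) sit near the LPS arrays and the WT saline circles (slide 2) below all of them.

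In KO mice, 4 of the 7 genes rose 6 h after LPS: Gfap, Serpina3n, Cd44 and Sox9. The called probes differed by 2.13-fold (Sox9) to 9.98-fold (Serpina3n). Lcn2 differed by 47.1-fold and Steap4 by at least 7.04-fold, but their errors were wide and they did not pass the test. Vim did not pass it either. Differences were tested with limma over all 28347 probes, and a probe was called at a Benjamini-Hochberg adjusted p under 0.05. By probe, 6 of 13 were called higher and 0 lower, and 12 of 13 had a positive difference. Over all probes 2.12% were called higher and 0.928% lower, and 4005 had an unadjusted p under 0.05 against 11 of the 13 member probes. The median difference of the members was 1.93, beside −0.08 over all probes. With the normexp background correction 2 member probes were called (the lead probes of Sox9 and Cd44), and over all probes 177 were higher and 182 lower, against 600 and 263 in the reported fit. For 11 of the 13 probes the KO LPS and KO saline arrays did not overlap, which held for 4.63% of all probes in the upward direction.

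The error of each test is pooled over the 4 groups, so a split WT saline group widened it also for KO in some probes. Leaving out WT saline replicates 1 and 2 lowered the SE of Lcn2 from 1.59 to 0.50. It raised that of Vim from 0.259 to 0.267 and that of the Sox9 lead probe from 0.168 to 0.172. Without WT saline replicates 1 and 2, 9 of 13 probes were called higher in KO, and Lcn2 and both Steap4 probes were among them. A fit to the KO arrays alone also called 9. Over all probes, 750 were called higher and 391 lower without the 2 arrays, and 684 and 285 in the fit to KO arrays. With all arrays these counts were 600 and 263.

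Gfap, the main filament protein of astrocytes, was read by 3 probes. Its lead probe A_52_P52303, the brightest of the gene, read 1.73, 1.56, 1.46 and 1.34 on the KO LPS arrays, against 0.24, 0.33, 0.52 and 0.48 on the KO saline arrays. All KO LPS arrays were above all KO saline arrays, and the difference was 1.13 ± 0.29 (2.19-fold, adjusted p = 0.0419, limma). The call is a narrow one: it held in 15 of 30 alternative settings, and leaving out any single KO array gave an adjusted p of 0.0526 to 0.136. In WT the probe read 2.37, 3.36, 2.97 and 2.12 after LPS, against 3.25, 2.78, 2.01 and 2.09 after saline. The WT groups overlapped, and the difference was 0.17 ± 0.29 (adjusted p = 0.9999). Without the 2 slide 1 saline arrays it was 0.66 ± 0.29 (adjusted p = 0.307). The order of the group means was WT LPS, WT saline, KO LPS and KO saline, and the 2 WT groups did not differ beyond their spread.

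The split Gfap probe A_52_P540991 gave a larger LPS difference in KO, 1.93 ± 0.35 (3.80-fold, adjusted p = 0.00653), from −0.98, −1.33, −0.87 and −0.80 after LPS against −2.88, −3.23, −2.68 and −2.88 after saline. The third Gfap probe, A_51_P395056, averaged −0.55 ± 0.20 in KO LPS and −1.71 ± 0.82 in KO saline (SD, n = 4 each), and its difference of 1.15 ± 0.38 was not called (adjusted p = 0.141). KO saline replicate 1, at −0.63, lay within the KO LPS range of this probe. All 3 probes thus had a positive LPS difference in KO, and 2 were called.

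After LPS the genotypes differed in opposite directions on these Gfap probes: the lead probe was lower in KO by −1.18 ± 0.29 (adjusted p = 0.00341), while the split probe was higher by 0.91 ± 0.35 (adjusted p = 0.0431). The call of the split probe held in 13 of 26 alternative settings. It was lost without any one of 8 arrays, among them WT LPS replicate 1 (0.56, adjusted p = 0.158). Other settings that lost it included base composition corrected (0.60, adjusted p = 0.210) and slide as a random block (adjusted p = 0.0977). The probe A_51_P395056 differed by −0.49 ± 0.38 (adjusted p = 0.303). After saline, the lead probe was lower in KO by −2.14 ± 0.29 (adjusted p = 3.32e-05), which became −1.66 ± 0.29 (adjusted p = 0.000896) without the 2 arrays. A_51_P395056 was lower by −1.25 ± 0.38 (adjusted p = 0.0120), but by −0.75 ± 0.42 without the 2 arrays (adjusted p = 0.179). The split probe differed by −0.83 ± 0.35 after saline (adjusted p = 0.0585), or by −0.52 ± 0.39 without the 2 arrays (adjusted p = 0.318). For Gfap after LPS no single direction of the genotype difference can be given.

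Vim encodes vimentin, which forms filaments together with the Gfap protein. Its tested probe A_51_P392687 (chr2:13504232-13504291, plus strand) read 2.60, 2.48, 2.60 and 2.57 in KO LPS, against 2.48, 2.19, 2.12 and 2.00 in KO saline. These groups barely separated, and the difference of 0.37 ± 0.26 was not called (adjusted p = 0.557). In WT it read 0.43, 2.11, 1.29 and 1.37 after LPS, against 1.76, 1.33, 1.78 and 1.66 after saline. The WT difference was −0.34 ± 0.26 (adjusted p = 0.926), or −0.42 ± 0.33 without the 2 arrays (adjusted p = 0.631), and WT LPS replicate 1 was the lowest array of all. Vim was higher in KO than in WT after LPS, by 1.26 ± 0.26 (2.40-fold, adjusted p = 0.00104). After saline the genotype difference was 0.56 ± 0.26 (adjusted p = 0.0796), or 0.48 ± 0.33 without the 2 arrays (adjusted p = 0.266). The order of the means was KO LPS, KO saline, WT saline and WT LPS, and of its comparisons only that between the genotypes after LPS was called.

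Lcn2 had the largest LPS difference of the members in KO. Its single probe A_51_P510156 read 1.10, 1.39, 1.24 and 2.39 in KO LPS, against −2.77, −5.39, −4.42 and −3.53 in KO saline, where 3 of 4 arrays were well above background. The groups were far apart, with a difference of 5.56 ± 1.59, which was not called (adjusted p = 0.0816). The same difference had an adjusted p of 8.61e-06 once WT saline replicates 1 and 2 were left out and an adjusted p of 0.000275 in the fit to KO arrays alone. Over its 29 alternative settings the adjusted p ran from 8.61e-06 to 0.180, and 10 called it.

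In WT, Lcn2 read −0.40, 0.90, 0.52 and −0.51 after LPS, against 1.11, 0.80, −7.83 and −7.28 after saline. The saline arrays of slide 1 were as bright as the LPS arrays, and those of slide 2 were not well above background. With all arrays the difference was 3.43 ± 1.59 (adjusted p = 0.789), and without the 2 slide 1 arrays it was 7.68 ± 0.61, at least 59.9-fold (adjusted p = 1.14e-05). Between the genotypes Lcn2 differed by 1.40 ± 1.59 after LPS (adjusted p = 0.487), or 1.40 ± 0.50 without the 2 arrays (adjusted p = 0.0323). After saline the direction itself turned on those arrays: −0.73 ± 1.59 with them (adjusted p = 0.721), and 3.53 ± 0.61 without them (adjusted p = 0.000938). Lcn2 was well above background on 3 of the 4 KO saline arrays. The mean was highest in KO LPS and next in WT LPS, and the order of the saline groups was not settled.

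Serpina3n had the largest difference among the called members. Its probe A_51_P159453 (chr12:105651918-105651977, plus strand) read −0.60, −0.35, −0.73 and −1.26 in KO LPS, against −3.53, −4.98, −3.69 and −4.01 in KO saline. The difference was 3.32 ± 0.62 (9.98-fold, adjusted p = 0.00713), and 29 of its 30 alternative settings kept the call, the exception being normexp (1.24, adjusted p = 0.134). In WT it read −0.34, 1.44, 1.10 and −0.04 after LPS, against 1.003, 0.68, −2.02 and −1.78 after saline. With all arrays the WT difference was 1.07 ± 0.62 (adjusted p = 0.851), and without the 2 slide 1 arrays it was 2.44 ± 0.49 (5.41-fold, adjusted p = 0.0165).

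Serpina3n was lower in KO than in WT after saline, by −3.52 ± 0.62 (adjusted p = 0.000300) with all arrays and by −2.16 ± 0.49 (adjusted p = 0.00468) without the 2. After LPS the genotype difference was −1.27 ± 0.62 (adjusted p = 0.101), or −1.27 ± 0.40 without the 2 arrays (adjusted p = 0.0178). The mean was highest in WT LPS and lowest in KO saline. Those of KO LPS (−0.73) and WT saline (−0.53) lay between with overlapping arrays, and without the 2 arrays WT saline averaged −1.90, below KO LPS.

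Steap4, which reduces iron and copper at the membrane, was not well above background on any KO saline array. Its lead probe A_51_P143893 (chr5:7981239-7981298, plus strand) read −1.53, −1.88, −2.17 and −2.84 in KO LPS, against −6.59, −7.14, −7.03 and −6.99 in KO saline. The measured difference was 4.83 ± 1.29, at least 7.04-fold, with an adjusted p of 0.0572 over all arrays and 0.000107 without WT saline replicates 1 and 2. In WT it read −2.96, −0.11, 0.11 and −2.45 after LPS, against −0.73, −1.25, −7.53 and −7.58 after saline. The difference was 2.92 ± 1.29 (adjusted p = 0.767), and without the 2 slide 1 arrays 6.20 ± 0.70, at least 21.5-fold (adjusted p = 0.000194).

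The split Steap4 probe A_52_P182919 read −3.48, −4.05, −3.75 and −4.23 in KO LPS, against −6.45, −7.00, −7.00 and −6.95 in KO saline, none of which was well above background. Its difference of 2.97 ± 1.07, at least 2.06-fold, had an adjusted p of 0.194, and of 0.0313 without the 2 WT arrays. One WT LPS array, replicate 3 on slide 1, read −6.05 on this probe and 0.11 on the lead probe. Between the genotypes the lead probe differed by −0.75 ± 1.29 after LPS (adjusted p = 0.654) and −2.66 ± 1.29 after saline (adjusted p = 0.0954), and without the 2 arrays the saline difference was 0.62 ± 0.70 (adjusted p = 0.511). The split probe was called lower in KO after saline, by −2.85 ± 1.07 (adjusted p = 0.0352), but the difference was −0.54 ± 0.88 without the 2 arrays (adjusted p = 0.658). It was well above background on 2 of the 4 WT saline arrays, and the others read −6.13 and −6.50. For Steap4 no order of the genotypes could be given.

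Cd44, the hyaluronan receptor, rose in KO on both tested probes. The lead probe A_52_P229536 (chr2:102652907-102652966, minus strand) read 1.36, 1.32, 1.46 and 1.64 in KO LPS, against −0.67, −1.11, −1.09 and −0.85 in KO saline. The difference was 2.38 ± 0.49 (5.19-fold, adjusted p = 0.0132). The probe A_52_P523459 (chr2:102651667-102651726, minus strand) gave the same size, 2.38 ± 0.51 (adjusted p = 0.0162), from −1.93 ± 0.26 in KO LPS and −4.32 ± 0.34 in KO saline (SD, n = 4 each). With normexp the lead probe differed by 1.97 and A_52_P523459 by 0.19 (adjusted p = 0.742), and without KO LPS replicate 3 the adjusted p of A_52_P523459 was 0.0544. In WT the lead probe read −0.55, 0.98, 0.63 and −1.42 after LPS, against 0.39, 0.55, −1.38 and −1.33 after saline. Both WT groups were split, and the difference was 0.35 ± 0.49 (adjusted p = 0.9999), or 1.26 ± 0.48 without the 2 arrays (adjusted p = 0.232).

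The genotype differences of the Cd44 probes had opposite signs after LPS. The lead probe was higher in KO by 1.54 ± 0.49 (adjusted p = 0.0179; 0.0626 without WT LPS replicate 4), while A_52_P523459 differed by −1.22 ± 0.51 (adjusted p = 0.0604), or by −1.22 ± 0.45 without the 2 arrays (adjusted p = 0.0385). After saline the lead probe differed by −0.49 ± 0.49 (adjusted p = 0.423), but by 0.42 ± 0.48 without the 2 arrays (adjusted p = 0.512), so its direction turned. A_52_P523459 was lower in KO by −3.47 ± 0.51 (adjusted p = 7.51e-05), or by −2.68 ± 0.56 without the 2 arrays (adjusted p = 0.00275). That call held in 24 of 25 alternative settings, the exception being normexp (−0.58, adjusted p = 0.180). Both probes are listed against the same 3 RefSeq transcripts.

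Sox9 is the transcription factor among the members. The lead probe A_52_P577484 (chr11:112647008-112647067, plus strand) read 3.002, 2.87, 2.88 and 2.92 in KO LPS, against 1.61, 2.33, 1.77 and 1.58 in KO saline. The difference was 1.09 ± 0.17 (2.13-fold, adjusted p = 0.00288). In WT it read 1.14, 1.31, 1.22 and 1.07 after LPS, against 1.23, 1.21, 0.98 and 1.07 after saline. The WT groups overlapped, with a difference of 0.06 ± 0.17 (95% interval −0.29 to 0.42, adjusted p = 0.9999), and the lowest and the highest of the 4 WT saline arrays were close together on this probe. Sox9 was higher in KO than in WT after LPS, by 1.73 ± 0.17 (3.32-fold, adjusted p = 2.21e-06), and after saline, by 0.70 ± 0.17 (1.63-fold, adjusted p = 0.00292), or 0.80 ± 0.21 without the 2 arrays (adjusted p = 0.0103). The WT LPS difference without them was 0.16 ± 0.21 (adjusted p = 0.813). The genotype call after saline held in 26 of 27 alternative settings, the exception being normexp (0.14, adjusted p = 0.638). The order of the means was KO LPS, KO saline, WT LPS and WT saline, and the 2 WT groups did not differ beyond their spread.

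The other Sox9 probes were not called for LPS in KO. A_52_P214630 (chr11:112648809-112648868, plus strand) read 2.15, 2.27, 2.49 and 2.06 in KO LPS, against 1.88, 1.49, 1.71 and −3.15 in KO saline. Its difference of 1.76 ± 0.78 (adjusted p = 0.317) rested on KO saline replicate 4, and was 0.55 ± 0.23 without that array (adjusted p = 0.276). Leaving that array out also gave a call between the genotypes after LPS, where the probe was higher in KO by 0.82 ± 0.21 (adjusted p = 0.00552), against an adjusted p of 0.404 with it. The split probe A_51_P451606 averaged −4.23 ± 0.45 in KO LPS and −4.07 ± 0.47 in KO saline (SD, n = 4 each), a difference of −0.16 ± 0.27 (95% interval −0.73 to 0.41, adjusted p = 0.820). That interval lies below the value of the lead probe. After LPS the split probe was higher in KO than in WT, by 0.80 ± 0.27 (adjusted p = 0.0220). That call was lost with base composition corrected (0.29, adjusted p = 0.352), with normexp (0.51, adjusted p = 0.229), with quantile normalization (adjusted p = 0.0646), and without KO LPS replicate 3 (0.0570), KO LPS replicate 4 (0.0772) or WT LPS replicate 4 (0.0724).

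**Figure D2:**
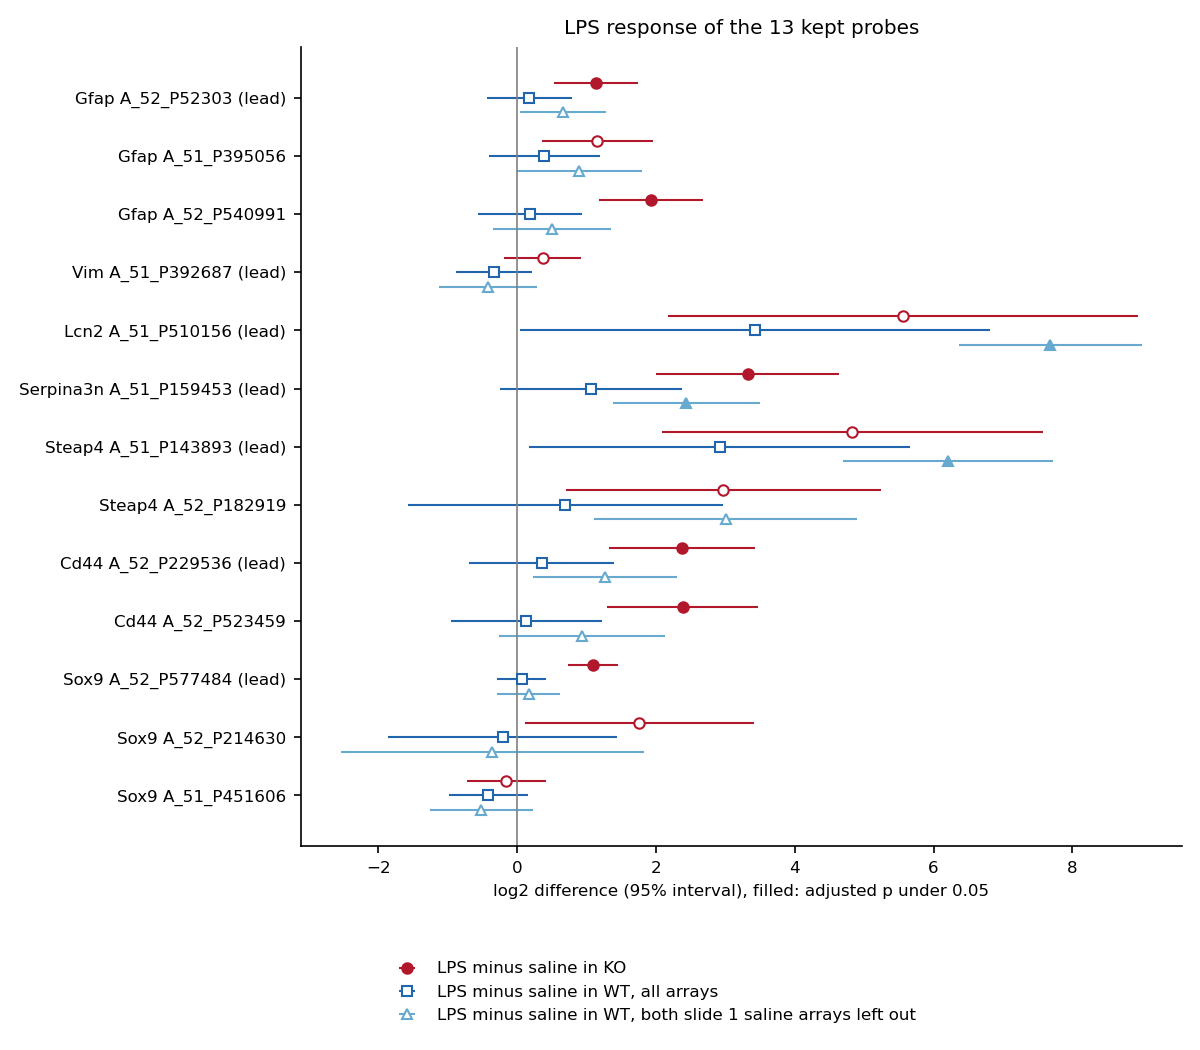
LPS minus saline (log2, 95% interval) of the 13 tested probes in KO, in WT with all arrays and in WT without both slide 1 saline arrays. Filled markers have an adjusted p under 0.05. In KO 6 probes are filled, in WT with all arrays 0, and without the 2 arrays 3 (Lcn2, Serpina3n and the Steap4 lead probe).

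In WT mice with all arrays, limma called 0 of 13 member probes in either direction, and 0% of all probes higher and 0% lower. At an unadjusted p under 0.05 there were 2 member probes (Lcn2 and the Steap4 lead probe) and 1777 of all probes. A positive difference was seen for 10 of the 13, with a median of 0.19 beside −0.03 over all probes. For 0 of the 13 did the WT LPS and WT saline arrays stand apart, which held for 1.97% of all probes in the upward direction. Without WT saline replicates 1 and 2, arrays set aside for their high values in such genes, the probe of Lcn2, that of Serpina3n and the Steap4 lead probe passed (3 of 13), while 1.51% of all probes were called higher and 0.776% lower. The median of the members was then 0.89.

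The same split showed within slides, where 2 LPS arrays were set against 2 saline arrays. On slides 3 and 4, which hold KO, 12 of 13 probes were higher after LPS on each, with medians of 2.11 and 1.99. On slide 2, which holds WT, 11 of 13 were higher, with a median of 0.78. On slide 1, also WT, 1 of 13 was higher and the median was −0.40. Serpina3n differed by 3.19 on slide 3, 3.45 on slide 4, −0.46 on slide 1 and 2.59 on slide 2. Sox9 lead probe values were 1.27, 0.92, −0.04 and 0.17 in the same order, near 0 on both WT slides.

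**Figure D3:**
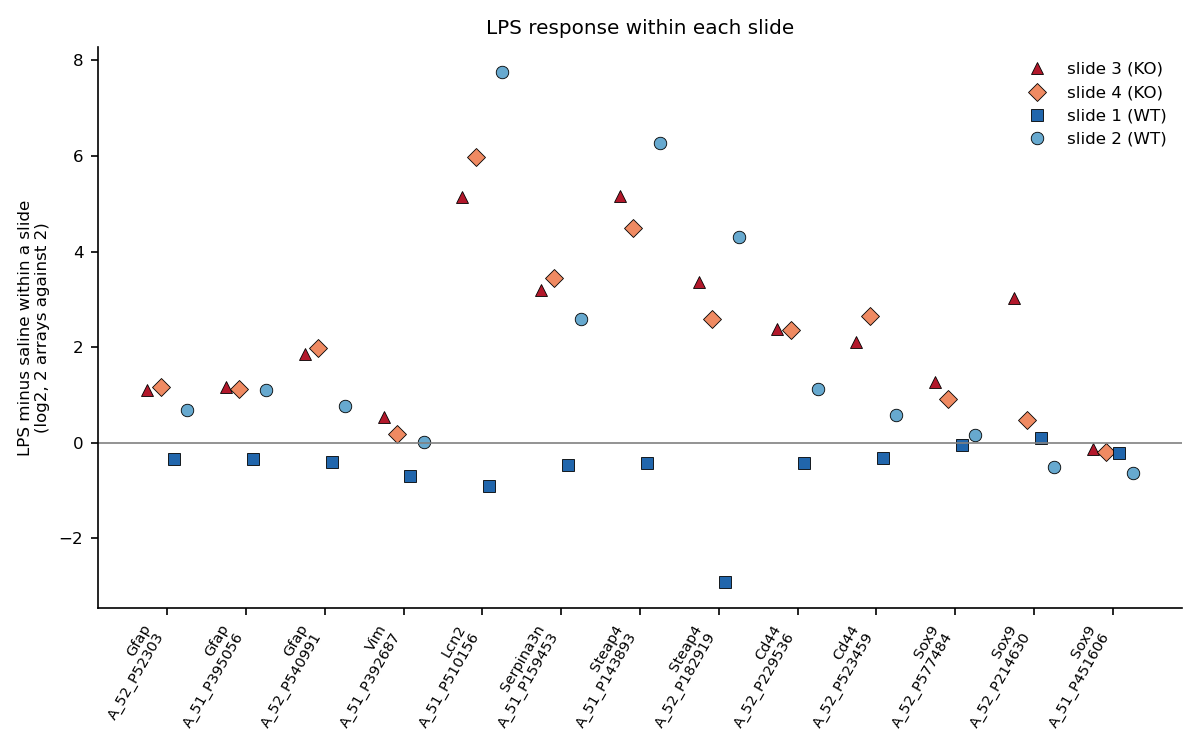
LPS minus saline within each slide (log2, 2 arrays against 2) for the 13 tested probes, with the KO slides 3 and 4 left of the WT slides 1 and 2. The medians are 2.11, 1.99, −0.40 and 0.78.

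The LPS response in KO minus that in WT, the interaction, asks whether the genotypes responded differently. In limma 0 of 13 member probes passed in either direction, with 6 at an unadjusted p under 0.05. Over all probes 0.00706% were called higher and 0% lower, and 1815 had an unadjusted p under 0.05. The difference was positive for 13 of 13 probes with all arrays but for 10 of 13 without WT saline replicates 1 and 2, where Lcn2 turned to −2.12 ± 0.79 (adjusted p = 0.712). The Sox9 lead probe had the smallest p, with 1.03 ± 0.24 (unadjusted p = 0.000543, adjusted p = 0.273) and 0.93 ± 0.27 without the 2 arrays (adjusted p = 0.583). A fit with array weights called it alone, at 0.94 (adjusted p = 0.0397). For Serpina3n the difference was 2.25 (95% interval 0.39 to 4.11), or 0.88 without the 2 arrays (−0.48 to 2.25).

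**Figure D4:**
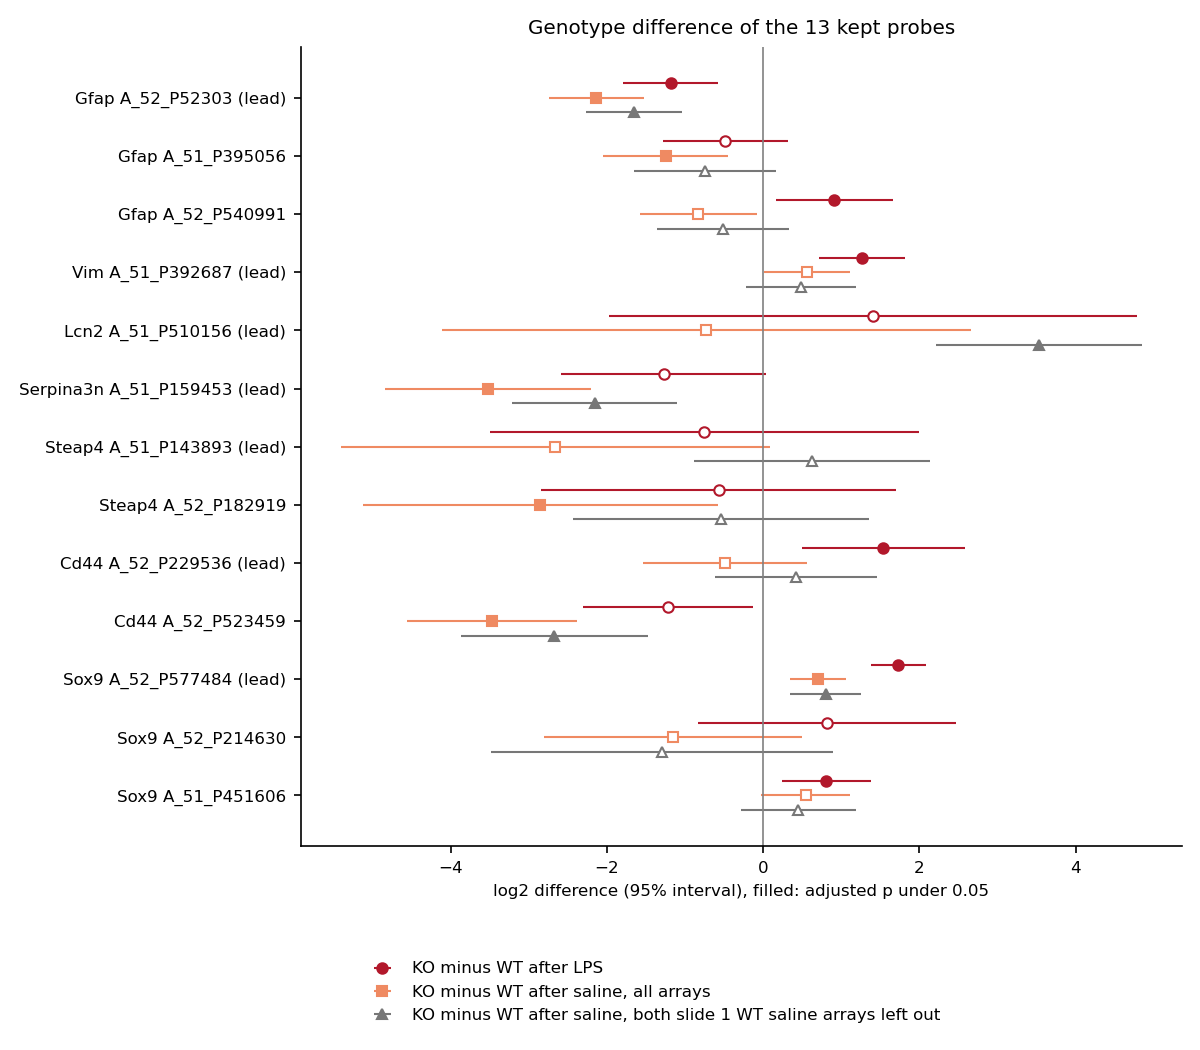
KO minus WT (log2, 95% interval) of the 13 tested probes after LPS, after saline with all arrays, and after saline without both slide 1 WT saline arrays. Filled markers have an adjusted p under 0.05. Gfap and Cd44 have probes on both sides of 0 after LPS, and Lcn2 changes side between the 2 saline fits.

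Between the genotypes, 5 of 13 member probes were higher and 1 lower in KO after LPS. Over all probes 24% were called higher and 24.4% lower, so the members' counts stand beside a comparison in which very many probes differ. The probes higher in KO were the Sox9 probes A_52_P577484 and A_51_P451606, the Cd44 lead probe, Vim and the split Gfap probe, and the one lower was the Gfap lead probe. Without WT LPS replicate 4 the count higher was 2, and without WT LPS replicate 1, KO LPS replicate 3 or KO LPS replicate 4 it was 3. After saline 1 was higher (the Sox9 lead probe) and 5 lower, among 26.5% and 25.5% of all probes. Without WT saline replicates 1 and 2 the saline counts were 2 higher and 3 lower, among 18.6% and 18% of all probes. With the normexp background correction, 13264 of all probes were called higher and 4280 lower after saline, against 7521 and 7237 in the reported fit.

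Summed markers of some cell types also differed between the genotypes, and their part in the member differences was not tested. A sum adds the linear levels of a list, with the 75th percentile of the array as 1. The 12 astrocyte markers summed to 220.3 to 285.1 in KO LPS against 185.4 to 201.7 in WT LPS, and to 275.0 to 451.5 in KO saline against 180.1 to 225.2 in WT saline, without overlap. Such a sum is carried by the brightest genes: by gene, 5 of the 12 were called higher and 2 lower in KO after LPS, and 5 higher and 4 lower after saline. Over all probes, 24% were called higher and 24.4% lower in KO after LPS, and 26.5% and 25.5% after saline. Counts of markers near these shares set no cell type apart. Oligodendrocyte markers, 9 of 10 measured, summed to 66.8 to 69.6 in KO LPS against 70.3 to 148.6 in WT LPS, a narrow gap. After saline these sums overlapped, at 65.6 to 105.1 in KO and 81.6 to 181.1 in WT. Striatum markers, 7 of 8 measured, summed to 7.04 to 8.65 in KO LPS against 9.73 to 19.4 in WT LPS. Neuron markers, 8 of 8, summed to 223.0 to 250.6 in KO LPS against 156.5 to 198.7 in WT LPS. Endothelial, fibroblast and pericyte, ependyma and choroid plexus, and hippocampus sums overlapped between the genotypes after either treatment. By gene, 4 of 7 hippocampus markers were called lower and 0 higher in KO after LPS, and 5 lower and 0 higher after saline. For ependyma and choroid plexus, 4 of 8 were lower and 1 higher after LPS, and 1 lower and 2 higher after saline. Microglia and macrophage sums were higher in KO after either treatment, without overlap. Of those 10 genes, 3 were called higher and 2 lower after LPS, and 3 higher and 1 lower after saline.

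LPS left the astrocyte markers themselves without a call. Of 12 measured, 0 were called in KO and 0 in WT, with a median of −0.20 in KO beside −0.08 over all probes. With 2.12% of all probes called higher and 0.928% lower in KO, no call among 12 is also what most lists would give. Slc1a3, a glutamate transporter, averaged 4.80 ± 0.16 in KO LPS and 4.99 ± 0.19 in KO saline (SD, n = 4 each), a difference of −0.18 ± 0.15 (adjusted p = 0.625). Aqp4, the water channel of astrocyte endfeet, differed by 0.18 ± 0.33 (adjusted p = 0.833), and Aldh1l1 by −0.05 ± 0.31 (adjusted p = 0.952). Gja1 had the largest difference of the defining genes, 0.75 ± 0.40 (adjusted p = 0.429), with an SD of 1.18 in KO saline.

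Other genes reported for reactive astrocytes in mouse work were counted from lists, which were chosen with earlier results of these data known. The RNA came from whole amygdala, and the cells that raised these genes were not identified. Over all probes, 2.12% were called higher and 0.928% lower in KO after LPS. In WT without WT saline replicates 1 and 2 these shares were 1.51% and 0.776%. Of 7 further pan-reactive genes, those shared by astrocytes after LPS and after ischaemia, 5 rose and 0 fell in KO after LPS, with a median of 3.10. Cxcl10, an interferon-induced chemokine, rose most, by 9.87 ± 1.49 (adjusted p = 0.00280), from 4.24 ± 0.18 in KO LPS against −5.63 ± 0.71 in KO saline, where 1 of 4 arrays was well above background. Timp1, a metalloproteinase inhibitor, rose by 4.28 ± 0.85 (19.4-fold, adjusted p = 0.0103). Osmr, the oncostatin M receptor, rose by 3.77 ± 0.59 (13.6-fold, adjusted p = 0.00309). In WT with all arrays 0 of the 7 were called, and without WT saline replicates 1 and 2 it was 5.

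Of 12 measured genes that mouse astrocytes were reported to raise mainly after LPS, 8 rose in KO, among them Gbp2 by 5.67 ± 1.03, Iigp1 by 5.14 ± 0.91 and the complement gene C3 by 2.26 ± 0.57 (adjusted p = 0.0402). Of 10 measured genes reported mainly after ischaemia, 6 rose in KO, among them Cd14, a co-receptor for LPS, by 3.72 ± 0.62 and Emp1 by 2.76 ± 0.40. The medians were 1.67 and 2.00, beside −0.08 over all probes, of which 2.12% were called higher. Which cells raised the genes of either list was not tested. In WT 0 of either list were called with all arrays, and without the 2 arrays 9 were called higher and 1 lower of the first list and 5 higher of the second.

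In the STAT3 pathway, 3 of 13 measured genes rose in KO after LPS and 0 fell, beside 2.12% and 0.928% of all probes. Il6, the cytokine that starts the pathway, was not well above background on any KO saline array and was on all 4 KO LPS arrays. Socs3, an inhibitor that STAT3 induces, rose by 3.73 ± 0.62 (13.3-fold, adjusted p = 0.00381), and Osmr is the other. Stat3 itself differed by 0.77 ± 0.34 (adjusted p = 0.316). In WT 0 of the 13 were called with all arrays, and without WT saline replicates 1 and 2 Socs3 (2.73 ± 0.40, adjusted p = 0.00154) and Osmr (2.62 ± 0.31, adjusted p = 0.000252) were.

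Of 18 measured partners of the members (filament partners, receptors and ligands of lipocalin 2 and Cd44, glial transcription factors), 1 rose in KO: Ezr, which links membrane proteins such as Cd44 to actin, by 1.78 ± 0.26 (3.44-fold, adjusted p = 0.00271). Over all probes 2.12% were called higher, so 1 of 18 does not set the partners apart. In WT 0 of the 18 were called with all arrays, and without the 2 arrays Spp1 (osteopontin, a Cd44 ligand) was, at 1.73 ± 0.36, and Msn (moesin), at 1.16 ± 0.26.

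Of the neutrophil and monocyte markers, S100a8, S100a9, Mpo, Mmp8, Ly6c1 and Plac8 passed the detection filter, while Camp, Ngp, Ltf, Ela2, Il8rb and Ccr2 did not. The 6 measured ones summed to 4.46 to 14.1 in KO LPS against 2.57 to 4.38 in KO saline, and to 4.03 to 6.60 in WT LPS against 1.80 to 7.69 in WT saline. In KO 1 of the 6, Plac8, was called, at 3.74 ± 0.93 (adjusted p = 0.0384), where 2.12% of all probes were called higher. In WT 0 were called with all arrays, and without the 2 arrays Plac8, S100a8 and S100a9 were. The 10 microglia and macrophage markers summed to 23.1 to 27.0 in KO LPS against 28.2 to 46.1 in KO saline, and to 14.0 to 17.0 in WT LPS against 17.2 to 27.1 in WT saline. The microglia sums were lower after LPS in both genotypes, without overlap, while by gene 1 of the 10, Gpr34, was called lower in KO and 0 in WT. Which cells gave the signal of these markers was not tested, nor was the part of such cells in the member differences.

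The genes most alike to each lead probe were those with the smallest mean absolute difference over the 16 arrays, after centring each probe on its own mean, among 23019 candidate probes. For Gfap they were Amigo2 (0.21), Pkp2 (0.21) and Rrp8 (0.23), and the Gfap probe itself deviated from its mean by 0.83. For Vim they were 2310030G06Rik (0.16), Lipt1 (0.16) and Pold3 (0.18), for Lcn2 Zbp1 (0.60), Gbp6 (0.69) and Il1rn (0.71), and for Serpina3n Scara5 (0.45), Tap1 (0.46) and Adamts1 (0.47). For Steap4 they were Serpina3f (0.52), Tgtp1 (0.55) and Gbp2 (0.57), for Cd44 Cd40 (0.24), Ptges (0.26) and Cxcl16 (0.28), and for Sox9 Clec5a (0.16), Vav1 (0.23) and Birc2 (0.23). The measure takes in both treatment and genotype.

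The authors' deposited table of fold changes lists 11 of the 15 member probes. In the authors' deposited table KO LPS against KO saline was 48.2-fold up for Lcn2, 28.4-fold for Steap4 and 9.98-fold for Serpina3n. In the authors' deposited table WT LPS against WT saline was 10.8-fold up for Lcn2, 7.57-fold for Steap4 and 2.09-fold for Serpina3n, means that include both slide 1 saline arrays.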

How the data were processed

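Whole-amygdala RNA was hybridised to 16 Agilent 1-colour (Cy3) arrays, 4 in each of 4 groups. Per the file headers, the per-array values are spot intensity processed by Feature Extraction 9.5.1.1, background-subtracted and detrended, on mouse build mm9, and the submitters' processing notes name version 9.5. The authors also deposited log2 values averaged per group and linear fold changes, whose normalization is not given in the sources used here. Their 32 columns of detection calls per array played no part. Array 75th percentiles of intensity ran from 345.9 to 1164.7, and the detected share of probes from 58.1% to 71.9%. Precision is limited by how many arrays there are.

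Values were log2 intensity minus the array's 75th percentile. Control and outlier spots were left out. limma 3.58.1 (R 4.3.3) fitted 4 group means to 16 arrays, 1 row per probe, with Benjamini-Hochberg adjustment over 28347 rows. Changes are log2 differences ± SE with 4 arrays per group. Where no array of a group detected a probe, "at least N-fold" sets the bright group's mean against a floor, the mean over the dim arrays of the lowest detected signal (or of the probe's own signal where higher). All member probes are named, each gene led by its kept probe with the highest mean. Up to 6 called genes per list are named by size, plus Cxcl10, Timp1, Osmr and Stat3. Members and lists were chosen with earlier results of these data known. Scripts were tested on simulated data. The sequence of 1 Gfap probe is not reported here. Alternatives covered background correction, scaling, detection filters, 1 probe per gene, array weights, base composition, slide and replicate blocks, fits within slides or genotypes, and leaving out arrays. Replicate numbers did not pair the arrays.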

Additional observations from a re-analysis of the deposited data

Results flagged for a closer look

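In each of the 13 tested probes and 4 groups, 52 sets of 4 arrays, the highest or lowest array was set against the other arrays by Dixon's criterion at the 95% level. Chance flags about 1 in 20 such sets, and 2 were found.

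The Sox9 probe A_52_P214630 read −3.15 on KO saline replicate 4, against 1.49 to 1.88 on the other KO saline arrays. The same array read 1.58 on the Sox9 lead probe and −4.02 on the split Sox9 probe, within or close to the range of its group on both. The LPS difference of A_52_P214630 in KO was 1.76 with this array and 0.55 without it.

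The Steap4 probe A_52_P182919 read −6.45 on KO saline replicate 1, against −7.00 to −6.95 on the others. None of the 4 arrays was well above background.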

How the results depend on the processing

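Of 1778 values of member probes over all alternatives, 1654 kept their side of the threshold with no called value reversed, though 49 of these, called in neither fit, changed sign. Another 60 lost the call, 61 gained it and 3 reversed. Reversed were the saline genotype difference of Lcn2, at 2.51 with array weights and 3.53 without both slide 1 WT saline arrays, and that of the Steap4 probe A_52_P182919, at 0.85 with normexp. The number of member probes that rose with LPS in KO (6 of 13) was 2 with normexp, 10 with array weights and 3 within slide 4. In WT (0) it was 7 with array weights, 3 within slide 2 and 3 without the 2 arrays. For KO against WT after LPS, the probes higher (5) were 3 of 7 with 1 probe per gene and 3 with base composition corrected, and those lower (1) were 3 with array weights and 3 without the 2 arrays. After saline, the probes higher (1) were 2 without a detection filter, 3 with array weights and 2 without the 2 arrays, and those lower (5) were 3 with normexp, 3 of 8 when detection on all 16 arrays was required, 2 of 7 with 1 probe per gene and 3 without the 2 arrays. In the interaction array weights called 1. The cause of these changes was not tested, beyond fewer rows or arrays where a setting has them.

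Leaving out 1 array at a time gave 4 to 8 probes higher with LPS in KO, 0 in WT, 2 to 5 higher and 1 to 2 lower in KO after LPS, 1 to 2 higher and 4 to 7 lower in KO after saline, and 0 in the interaction. The saline count of probes higher was 2 without KO saline replicate 3, WT LPS replicate 1 or WT LPS replicate 2. Over all probes, the LPS calls in KO (600 higher, 263 lower) were 177 and 182 with normexp and 1523 and 2017 with array weights, and those in WT (0 and 0) were 1188 and 1131 with array weights. Normexp moved the median of all probes to −0.32 for LPS in KO and to 0.51 for KO against WT after saline, and brought the Steap4 lead probe to 0.35 for LPS in KO (adjusted p = 0.714). With a replicate block 5 probes rose with LPS in KO, 4 were higher and 1 lower in KO after LPS, and 1 higher and 5 lower after saline. Deviations of same-numbered arrays correlated from −0.40 to 0.32, so the numbers pair nothing. Dim probes limit Steap4 and Lcn2, whose saline values lie partly below background.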
